A study of Zea mays with 9 samples.

Results

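The genes described here are 13 genes of the maize primary root growth zone in which the mix of annotated transcripts differed between severely stressed and well-watered roots. They were selected on the measured values themselves. A gene had to have at least 2 annotated transcripts and at least 100 unique reads in every library, a unique read being one counted on a single transcript. In addition, 1 of its transcripts had to differ by at least 15 percentage points in its share of the gene's unique reads between the well-watered and severe means, with no overlap between the 3 and 3 libraries. Of 39323 genes, 12616 had at least 2 transcripts, 3578 of these had enough unique reads, and 13 of the 3578 met the rule (0.363%). The well-watered and severe shares chose these genes, so they are given below as a description without a test.

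The libraries came from inbred B73 seedlings whose primary roots grew in the dark in vermiculite at a water potential of -0.02 MPa (well-watered, replicates 1, 2 and 3), -0.3 MPa (mild stress, replicates 1, 3 and 4) or -1.6 MPa (severe stress, replicates 1, 2 and 5). The apical 1 cm, root cap included, was harvested 26 h after transplanting, and each library pooled 5 roots. The title of the series gives another water potential for mild stress than the sample labels, whose value is used here. Libraries held 33385679 to 52047078 reads on the transcripts for which the authors list an abundance, and 48.1% to 48.7% of all counted reads were unique. Of the markers of the tissue, rth3, a root hair gene, had 42.4 to 62.1 CPM (the count scaled to the depth of the library) and rtcs1, needed for crown and seminal roots, 1.55 to 9.11 CPM, whereas the shoot meristem gene kn1 had 0.0487 to 0.423 CPM, pep1 of leaf photosynthesis 0.599 to 2.15 CPM, and ssu1 was listed at 0. The markers rth1 and tb1 were not matched. The segment holds several cell types, and a shift in their proportions cannot be told apart from a shift within cells.

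A gene gives several transcripts when transcription starts at another promoter, when an intron is kept or removed, or when the RNA is cut and polyadenylated at another site. Another first exon can alter the 5′ untranslated region or the start of the protein, and an early polyadenylation site can truncate it. Plants under drought or salt are known to alter such choices in many genes, with retained introns the most common form of alternative splicing in plants.

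Most genes showed little movement. The largest difference of any transcript between the severe and well-watered means had a median of 0.331 percentage points over the 3578 genes and a 99th percentile of 10.3. A second transcript held at least 15% of the unique reads, on average over the 9 libraries, in 600 of these genes (16.8%). The median of the largest difference in those 600 was 3.23 points. Of the 13 genes, 12 were among the 600, and their own differences ran from 16.5 to 39.6 points with a median of 19.7.

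**Figure D1:**
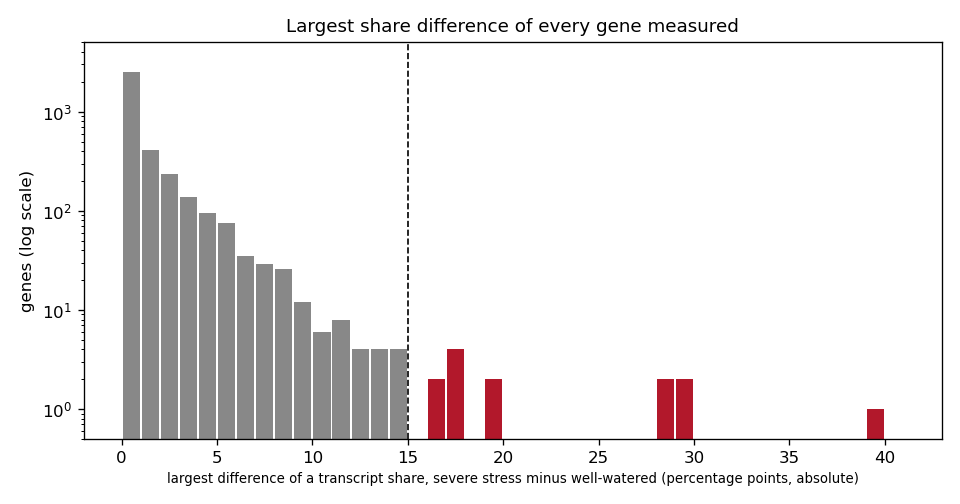
Largest absolute difference of a transcript's share of unique reads between the severe and well-watered means (percentage points, x axis) against the number of genes (y axis, log scale) for the 3578 genes measured. The dashed line marks 15 points, and the red bars to its right hold the 13 genes that met the rule.

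The genes just inside the threshold were GRMZM2G084942 at 16.5 points, GRMZM2G044629 at 16.9 and GRMZM2G146240 at 17.1. Of the genes without overlap of the well-watered and severe libraries, those just outside it were GRMZM2G114751, in which the share of T01 fell by 14.9 points (well-watered 69.8%, 70.4% and 67.4%, severe 59.1%, 52.5% and 51.4%), then GRMZM2G139085 at 14.5 points and GRMZM2G024823 at 14.1. The size of the difference alone kept these 3 out.

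In each gene, the gaining transcript is the one with the largest increase in share under severe stress and the losing transcript the one with the largest decrease. Their exons showed how the pair differs. In 5 of the 13 genes the pair had different first exons and ended at the same base. In 4 genes the last exons differed, in 1 gene an intron of 83 bp was retained in the losing transcript, and in 3 genes the pair had no exon base in common. Among the 600 genes with a second transcript of at least 15%, the pair differed in the first exon in 19.0%, in the last exon in 27.3%, by a retained intron in 25.2%, and had no shared exon base in 4.67%. These counts are a description of the 13 and were not tested against the 600.

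**Figure D2:**
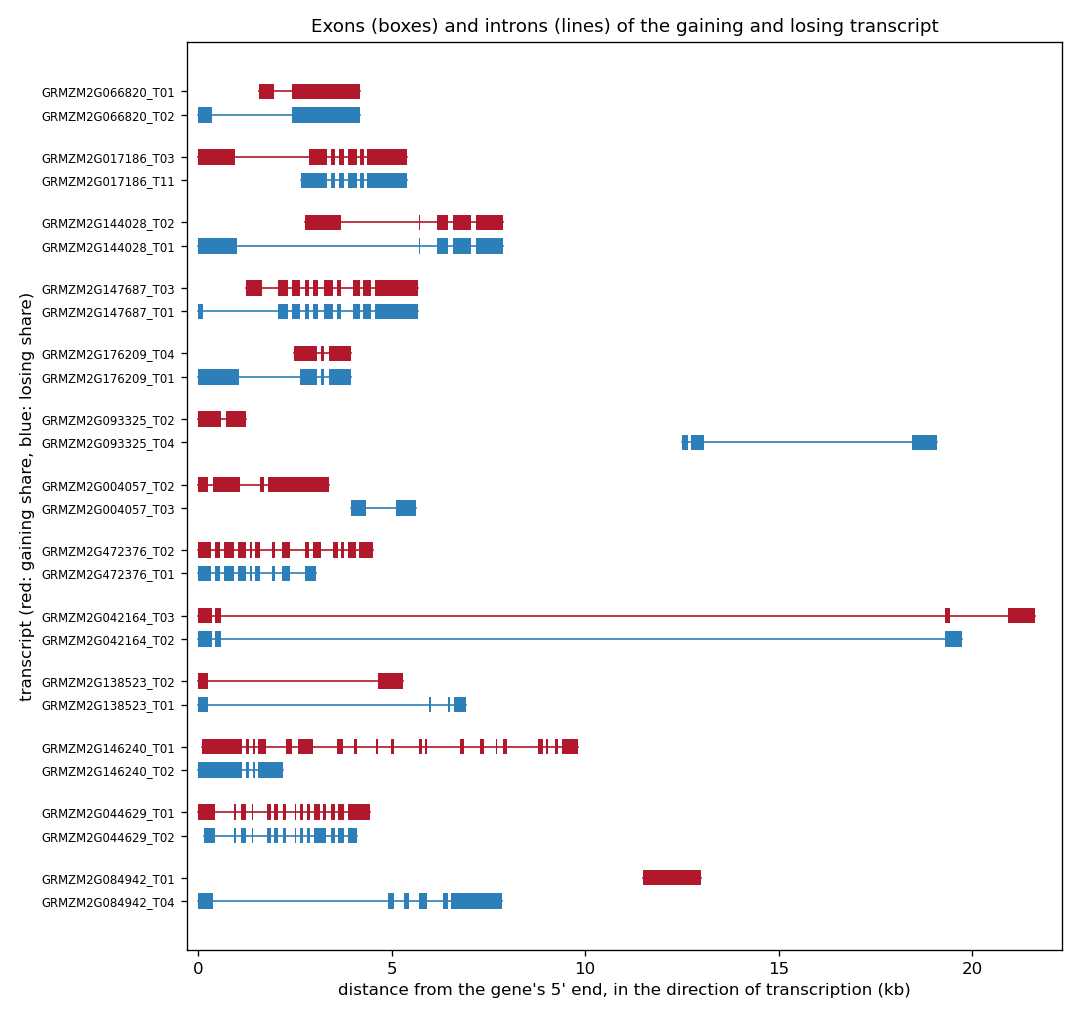
Exons (boxes) and introns (lines) of the gaining (red) and losing (blue) transcript of each gene, drawn to scale by distance in kb from the 5′ end of the gene in the direction of transcription (x axis). The upper 5 pairs differ in the first exon, and the pairs of GRMZM2G093325, GRMZM2G004057 and GRMZM2G084942 lie apart with no exon base in common.

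The largest difference was in GRMZM2G066820 (chromosome 2, 24291590 to 24295758, plus strand, B73 RefGen_v3). It has 2 annotated transcripts that share a last exon of 1742 bp and differ in the first exon, that of T01 starting 1573 bp downstream of that of T02. T01 had 15.7%, 17.0% and 16.4% of the unique reads in the well-watered libraries, 23.9%, 27.8% and 29.8% under mild stress and 51.0%, 58.6% and 58.2% under severe stress. The 3 treatments did not overlap, and the mean went from 16.4% ± 0.656 (SD, n = 3) to 27.2% ± 3.04 and 55.9% ± 4.32. T02 held the larger share in every well-watered and mild library, and T01 in every severe library. Both transcripts moved in level, given here as unique CPM, the unique reads of a transcript on the same CPM scale. T01 had 2.13, 2.47 and 2.29 in the well-watered libraries and 4.61, 5.69 and 5.70 in the severe ones, and T02 had 11.4, 12 and 11.7 against 4.44, 4.02 and 4.09. T02 was thus at 0.357 of its well-watered level, the lowest ratio among the 13 losing transcripts. T02 is also the only transcript of these genes found in the study's degradome list of cleaved miRNA targets, where it stands as a target of a miR172 family member. The paper counts miR172 among the families that its small RNA sequencing did not detect in this tissue. Its degradome had 1 library per treatment, and a link between miR172 and the level of T02 was not tested. The files do not place the cleavage site in the shared or the unshared exon.

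The adjacent genes GRMZM2G147687 and GRMZM2G017186 on the plus strand of chromosome 1 both had a first-exon pair. GRMZM2G147687 (276371915 to 276377603) is exg1, an exoglucanase gene whose product acts on cell wall glucans, and GRMZM2G017186 (276389788 to 276395239) is named in RefSeq only by the marker umc1721. They lie 12184 bp apart with 0 annotated genes between them. Their pairs hold internal exons of 91, 244 and 105 bp in the same order, the last 2 of them in direct succession. Whether the genes are copies was not tested, and reads of near-identical copies could be divided between them. Only 2.69% of the reads of exg1 and 4.0% of those of GRMZM2G017186 were unique to a transcript.

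In exg1, T01 had 45.8%, 45.9% and 50.3% of the unique reads in the well-watered libraries, 39.4%, 38.4% and 38.9% under mild stress and 17.0%, 18.5% and 19.6% under severe stress, without overlap between treatments. T03, whose first exon starts 1230 bp downstream, held 51.5%, 51.4% and 47.5%, then 57.4%, 58.8% and 59.2%, then 80.3%, 79.1% and 77.7%. The level of T01 itself overlapped, with 9.02, 10.7 and 9.20 unique CPM in the well-watered and 8.47, 9.56 and 9.90 in the severe libraries, although all 3 mild libraries (8.78, 8.54 and 9.01) lay just below the well-watered ones. T03 went from 10.1, 12 and 8.68 to 40.1, 40.9 and 39.2, which is 3.90 times the well-watered mean. The unique reads of exg1 numbered 674 to 2651 per library, and its counting error reached the narrowest value among the 13 genes, 2.88 points.

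In GRMZM2G017186, which has 13 annotated transcripts, T03 had 33.1%, 32.4% and 28.7% in the well-watered libraries, 42.9%, 43.4% and 38.2% under mild stress and 54.4%, 66.1% and 62.3% under severe stress. T11 had 45.0%, 46.2% and 51.3%, then 29.3%, 33.1% and 34.8%, then 22.5%, 13.5% and 19.6%. Neither transcript overlapped between treatments, and in unique reads T03 was ahead of T11 already in all 3 mild libraries. In total reads T03 led in mild replicate 1 alone (35.3% against 32.4%), had 36.3% against 36.6% in replicate 3 and stood below it in replicate 4 (31.1% against 37.4%). Here the first exon of the gaining T03 starts 2651 bp upstream of that of T11, opposite to the other 4 first-exon genes. T03 had 1.46, 1.08 and 1.02 unique CPM in the well-watered libraries and 4.92, 8.87 and 7.45 in the severe ones, a ratio of 5.97 that was the highest among the gaining transcripts.

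GRMZM2G144028 (chromosome 8, 151442240 to 151450110, minus strand) is WAK-RLK2 in RefSeq, by its name a wall-associated receptor-like kinase. Proteins of this family span the plasma membrane and bind cell wall pectin. T02, whose first exon starts 2749 bp downstream of that of T01, had 9.15%, 13.6% and 13.4% of the unique reads in the well-watered libraries, 17.6%, 17.6% and 19.1% under mild stress and 42.1%, 38.8% and 42.9% under severe stress. The treatments did not overlap. The well-watered shares rest on 13, 27 and 21 reads of T02. T01 had 3.76, 3.94 and 3.22 unique CPM in the well-watered and 3.04, 3.45 and 3.30 in the severe libraries, so the levels of the losing transcript overlapped. The last exon of both transcripts shares 700 bases with a gene on the opposite strand, GRMZM2G144021. Whether the counting used strand is not given in the sources used here, so reads of the 2 genes may not be separable there.

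GRMZM2G176209 (chromosome 1, 223906865 to 223910808, plus strand) is NIP3-1, a channel of the nodulin 26-like group of the aquaporin family, which in plants includes boron channels. T04 starts 2459 bp downstream of T01 and lacks its first exon of 1037 bp. T04 had 22.8%, 23.7% and 21.9% in the well-watered libraries, 22.6%, 24.9% and 30.8% under mild stress and 47.0%, 58.6% and 47.9% under severe stress. Well-watered and mild libraries overlapped, and the severe libraries lay above both. In unique reads T01 was the largest transcript in every well-watered library and T04 in every severe library. T01 has 0 bases of its own, against 175 for T04, and only 4.13% of the reads of the gene were unique. In total reads T01 remained above T04 in severe replicates 1 and 5 (56.0% against 37.9% and 55.9% against 38.7%), and T04 led only in replicate 2 (48.7% against 46.5%). The level of T01 overlapped, with 3.01, 3.76 and 3.62 unique CPM in the well-watered and 3.86, 3.43 and 3.75 in the severe libraries.

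**Figure D3:**
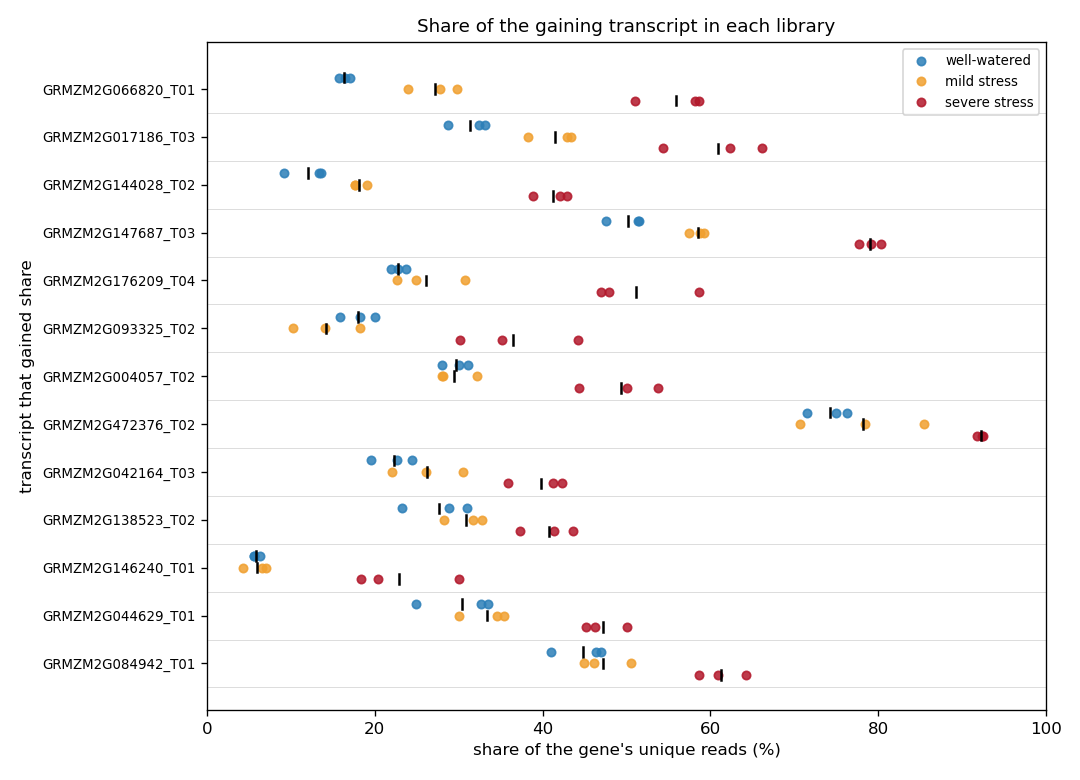
Share of the gene's unique reads (%, x axis) taken by the gaining transcript of each gene (y axis) in the 9 libraries. Points are libraries of well-watered (blue), mild stress (orange) and severe stress (red) roots and black ticks are treatment means. In every gene the 3 severe points lie to the right of the 3 well-watered points, and the mild points overlap the well-watered ones in all genes but GRMZM2G066820, GRMZM2G017186, GRMZM2G144028 and GRMZM2G147687.

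The 4 genes with different last exons differ in where the transcript ends, and the gaining transcript ends farther downstream in 3 of them. In GRMZM2G146240 (chromosome 7, 146004451 to 146014262, plus strand) the gaining T01 has 20 exons and ends 7625 bp downstream of T02, which has 4. T01 had 6.32%, 5.65% and 5.58% of the unique reads in the well-watered libraries, 4.23%, 7.01% and 6.58% under mild stress and 20.4%, 30% and 18.3% under severe stress. Its reads numbered 9 to 16 in the well-watered and mild libraries and 37 to 76 in the severe ones. Only the severe libraries stood apart.

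GRMZM2G472376 (chromosome 7, 104643978 to 104648480, plus strand) has a 14-exon T02 that ends 1460 bp downstream of the 9-exon T01. T01 also retains an intron of 104 bp. T01 had 25.0%, 23.7% and 28.5% of the unique reads in the well-watered libraries, 21.6%, 14.5% and 29.3% under mild stress and 7.49%, 7.61% and 8.24% under severe stress. The mild libraries spread over the whole well-watered range and beyond it on both sides. The level of T01 overlapped, at 0.846, 0.830 and 1.16 unique CPM in the well-watered and 0.749, 1.03 and 0.846 in the severe libraries. T02 went from 2.54, 2.67 and 2.91 to 9.26, 12.5 and 9.42.

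In GRMZM2G042164 (chromosome 10, 91493754 to 91515379, plus strand), the only one of the 13 with no RefSeq gene matched, the gaining T03 ends 1895 bp downstream of T02. T02 had 80.4%, 77.3% and 75.6% in the well-watered libraries, 68.8%, 73.9% and 78.0% under mild stress and 57.7%, 63.2% and 58.8% under severe stress. In GRMZM2G138523 (chromosome 5, 1822186 to 1829125, minus strand), the gaining T02 ends 1641 bp upstream of T01. T01 had 53.9%, 63.8% and 57.8% in the well-watered libraries, 58.9%, 52.6% and 53.2% under mild stress and 47.3%, 37.8% and 39.0% under severe stress. In both genes the losing transcript also had fewer unique CPM in every severe library, at 0.666 and 0.669 of the well-watered mean. In GRMZM2G138523 the unique CPM of the gaining T02 overlapped, with 2.71, 2.05 and 2.81 in the well-watered and 2.75, 4.39 and 3.61 in the severe libraries, the only gaining transcript of the 13 for which they did.

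GRMZM2G044629 (chromosome 2, 10478639 to 10483070, plus strand) was the single gene whose pair had overlapping first and last exons and differed by a retained intron, the 83 bp from 10481776 to 10481858 that T02 keeps and T01 removes. The spliced T01 had 24.9%, 33.5% and 32.6% of the unique reads in the well-watered libraries, 30%, 34.6% and 35.4% under mild stress and 45.2%, 50.1% and 46.3% under severe stress. The direction was thus towards the spliced transcript. T01 had 2.42, 3.07 and 2.79 unique CPM in the well-watered and 5.67, 7.02 and 5.81 in the severe libraries, whereas T02 had 7.30, 6 and 5.65 and then 6.76, 6.85 and 6.66. The levels of T02 overlapped between the treatments. T01 also extends beyond T02 by 133 bp at the 5′ end and by 328 bp at the 3′ end. The 3′ stretch is shared with T03, which leaves T01 with 133 bases of its own. The unique reads of T01 therefore need not come from the spliced intron.

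In the remaining 3 genes the word isoform fits the annotation poorly, because the pair shares no exon base. In GRMZM2G093325 (chromosome 6, 140896934 to 140916033, minus strand) T02 and T04 are separated by 11277 bp, and RefSeq places 2 genes, LOC100276869 and LOC100277865, under this identifier. T04 had 74.2%, 81.4% and 72.7% in the well-watered libraries, 85.3%, 75.5% and 80.3% under mild stress and 63.1%, 47.6% and 57.7% under severe stress. T04 itself had 3.36, 3.44 and 3.22 unique CPM in the well-watered and 3.75, 4.10 and 3.61 in the severe libraries, which lay above without overlap before but not after scaling for library composition. The upstream T02 went from 0.905, 0.669 and 0.804 to 1.79, 3.80 and 2.20, with severe replicate 2 above the other 2.

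GRMZM2G084942 (chromosome 5, 59318789 to 59331769, minus strand) gave a similar picture, with T04 upstream and the single-exon T01 3639 bp downstream of its end. T01 had 46.9%, 46.4% and 41.0% in the well-watered libraries, 46.1%, 44.9% and 50.5% under mild stress and 60.9%, 58.6% and 64.2% under severe stress. In unique reads T04 was the largest transcript in every well-watered library and T01 in every severe library, whereas in total reads T01 was already ahead in the well-watered libraries (58.9%, 61.4% and 61.2% against 37.8%, 36.6% and 37.2%). T01 was at 2.37 times its well-watered unique CPM. T04 was at 1.21 times, above in every severe library before but not after scaling for library composition. In this gene and in GRMZM2G093325, the transcript annotated across both places (GRMZM2G084942_T02 and GRMZM2G093325_T01) had 0 unique reads in all 9 libraries, although neither has exon bases of its own.

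In GRMZM2G004057 (chromosome 1, 233951533 to 233957184, minus strand) T02 and T03 lie 584 bp apart. Unlike in the other 2 genes, the transcript annotated across both places, T01, had unique reads. Its mean share was 0.621% in the well-watered, 0.597% in the mild and 0.507% in the severe libraries. T01 has 21 bases of its own, so these reads need not span both places. T02 had 28.0%, 31.1% and 30% of the unique reads in the well-watered libraries, 28.0%, 28.1% and 32.2% under mild stress and 44.3%, 53.8% and 50.1% under severe stress. The result depends on which reads are counted. Of the reads given to T02, 92.5% were unique, against 5.28% of those given to T03, and in total reads T02 held 2.53% in the well-watered and 5.28% in the severe libraries, a difference of 2.74 points in place of 19.7.

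A share of unique reads is not a share of molecules, since it also depends on how many bases a transcript has to itself. In GRMZM2G093325, T02 has 37 bases of its own and T04 has 536, and the share of T02 in the well-watered libraries was 18.0% of unique but 53.4% of total reads. The losing T01 of NIP3-1 and that of GRMZM2G138523 have 0 bases of their own. That of exg1 has 7, against 402 for the gaining T03. In 11 of the 13 genes a difference of at least 15 points without overlap was also found in total reads. The other 2 were GRMZM2G004057 and GRMZM2G146240, in which T02 was lower by 17.1 points in unique reads and by 11.4 points in total reads. Total reads include the unique reads that chose these genes, so the 2 counts are not independent. Of all 9277 genes with enough total reads, 237 met the rule in total reads. The counting error of a single share (95% Wilson interval) was 2.88 to 16.0 points wide over the 13 genes and 9 libraries, and covers counting only. For the most shifted transcript of each gene, the spread between replicates of a treatment was 0.404 to 7.86 points (SD, n = 3, well-watered and severe libraries).

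In the median over the 13 genes, the level changed by a larger ratio in the gaining than in the losing transcript. This is a description, since the same reads chose the genes. In all but exg1 and GRMZM2G472376 the gaining transcript also had the smaller well-watered mean share of the pair. An equal change in points is then a larger ratio for the gaining transcript. Severe over well-watered unique CPM had a median of 3.28 for the gaining transcripts (1.42 to 5.97), was at least 2 in 10 genes, and had no overlap of libraries in 12. For the losing transcripts the median was 0.927 (0.357 to 1.21). Losing transcripts were below the well-watered range in every severe library in 5 genes, above it in 2 and overlapped in the other 6. Scaling by TMM (trimmed mean of M values, a factor for library composition) lowered all of these ratios, to medians of 2.98 and 0.847, and gave 6, 0 and 7 genes in place of 5, 2 and 6. The losing transcripts of GRMZM2G176209 and GRMZM2G044629 had severe means above the well-watered ones without TMM and below them with it. Shares are not touched by this scaling. The counts of genes with and without overlap rest on the reads that chose the genes, and no share over all genes was computed beside them.

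**Figure D4:**
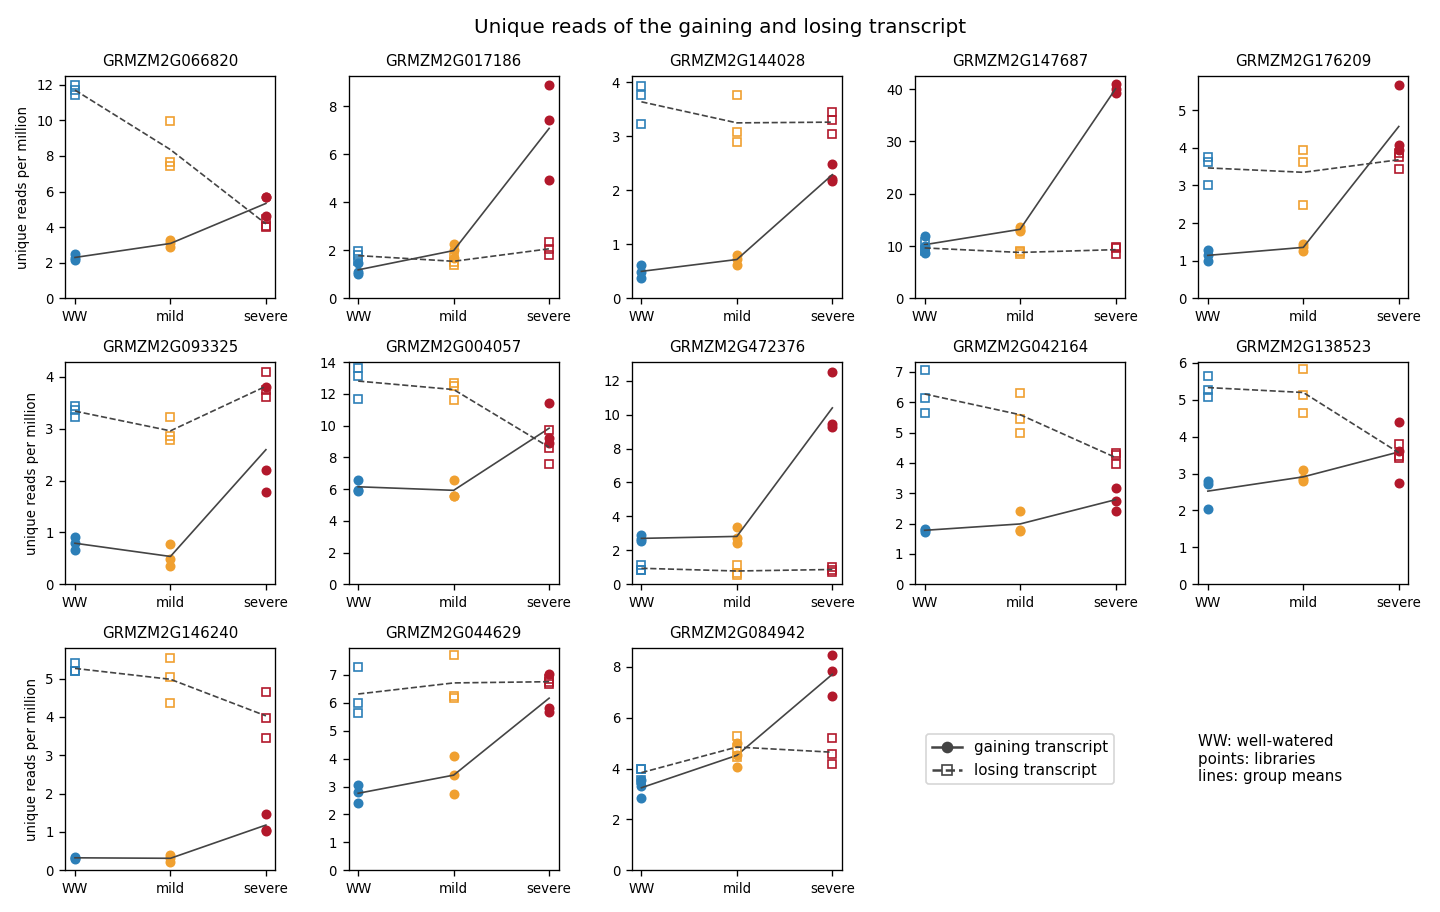
Unique CPM (y axis, from 0, scale set per gene) for the gaining transcript (filled circles, solid line) and the losing transcript (open squares, dashed line) in well-watered, mild stress and severe stress libraries (x axis). Points are libraries and lines join treatment means, and the gaining transcript of exg1 (GRMZM2G147687) goes from 8.68 to 12 under well-watered conditions to 39.2 to 40.9 under severe stress while the losing one stays between 8.47 and 10.7.

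The mild libraries took no part in the selection, although the well-watered libraries they are compared with did. Mild and well-watered shares of the most shifted transcript did not overlap in 4 of the 13 genes (GRMZM2G066820, GRMZM2G017186, WAK-RLK2 and exg1), against 8.8% of the 3578 genes. All 4 are first-exon pairs. Mild and severe differences share the well-watered libraries and are set side by side only. In GRMZM2G017186 the mild and severe differences of T03 were 10.1 and 29.5 points, in GRMZM2G066820 those of T01 were 10.8 and 39.6, and in GRMZM2G093325 those of T04 were 4.25 and -20.0. Severe and mild shares did not overlap in any of the 13 genes, against no overlap in 13.6% of the 3578, but the severe libraries had chosen these genes. Applied to mild against well-watered libraries, the full rule was met by 1 gene of the 3578 (0.0279%), which was GRMZM2G017186 with T11 lower by 15.1 points.

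Transcript usage under mild stress was tested with edgeR (quasi-likelihood fit of unique reads per transcript in all 9 libraries, diffSpliceDGE, Simes p per gene, Benjamini-Hochberg over 2038 genes with at least 2 transcripts above a mean of 5 unique reads). None of the 13 genes passed an FDR of 0.05, and neither did any of the 2038 (0%), with 57 genes at an unadjusted p below 0.05, of which 2 were among the 13. GRMZM2G066820 had the smallest value of the 13 (adjusted p = 0.113, edgeR), followed by GRMZM2G017186 (adjusted p = 1.00, edgeR). The gene-level F-test of the same edgeR fit called GRMZM2G066820 alone (adjusted p = 0.0215), and limma with voom called 0 of 2038 genes, with 108 at an unadjusted p below 0.05. Without mild replicate 1 the Simes test called GRMZM2G066820 too (edgeR adjusted p = 0.0375), and leaving out single libraries moved this value between 0.0375 and 0.983. WAK-RLK2, exg1, NIP3-1 and GRMZM2G042164 completed the 6 genes with the smallest p, each with an adjusted p of 1.00 by edgeR.

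The reads of the whole gene, summed over its transcripts, were looked at beside the shares. Under mild stress edgeR called 8.55% of 26994 genes at an FDR of 0.05 in either direction and 4.11% as lower. Of the 13 genes 1 was called, GRMZM2G066820, which fell by 0.43 on the log2 scale (SE 0.075, adjusted p = 0.0038, edgeR). It had 69.2, 73.4 and 68.2 CPM in the well-watered libraries, 56.4, 48.5 and 54.0 under mild stress and 42.2, 39.9 and 43.5 under severe stress, so that all mild libraries lay below all well-watered ones. In unique reads this call was lost (log2 change -0.32, adjusted p = 0.0739, edgeR). GRMZM2G084942 lay just outside the threshold, at 0.26 on the log2 scale (SE 0.074, adjusted p = 0.0549, edgeR), with 39.4, 46.1 and 42.5 CPM in the well-watered and 49.8, 56.1 and 49.5 in the mild libraries, and was called in 7 of 15 alternatives. The other 11 genes had mild log2 changes from -0.30 to 0.13.

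Under severe stress the gene totals went both ways, with positive log2 changes in 7 genes and negative ones in 6. The highest were 1.56 in GRMZM2G472376 (7.30, 7.72 and 8.11 CPM against 21.9, 30.2 and 22.4), 1.35 in GRMZM2G093325 and 1.05 in GRMZM2G017186 (111, 119 and 113 CPM against 232, 288 and 255). In GRMZM2G093325 the libraries had 21.7, 20.7 and 24.3 CPM against 37.2, 93.5 and 56.9, and the log2 change was 0.97 to 1.61 when single libraries were left out. The other positive changes were those of GRMZM2G084942 (0.74), exg1 (0.55), NIP3-1 (0.48) and WAK-RLK2 (0.37). The lowest were -0.87 in GRMZM2G066820, -0.54 in GRMZM2G146240, -0.51 in GRMZM2G138523, -0.50 in GRMZM2G004057 and -0.42 in GRMZM2G042164. Their severe libraries lay below their well-watered libraries in every case. No share over all genes was computed for the directions under severe stress or for the lack of overlap. The severe gene totals are therefore a description only. GRMZM2G044629 was at -0.02 with overlapping libraries, a sign that turned without TMM (0.11), which moved the median of all genes by 0.126.

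Taking unique reads moved several of these totals by more than 1.5 times, to 1.17 in exg1, 0.52 in GRMZM2G093325, -0.19 in GRMZM2G004057, -0.21 in GRMZM2G138523 and -0.25 in GRMZM2G146240. No direction turned in these 5 genes, whereas that of GRMZM2G044629 turned from negative to positive.

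**Figure D5:**
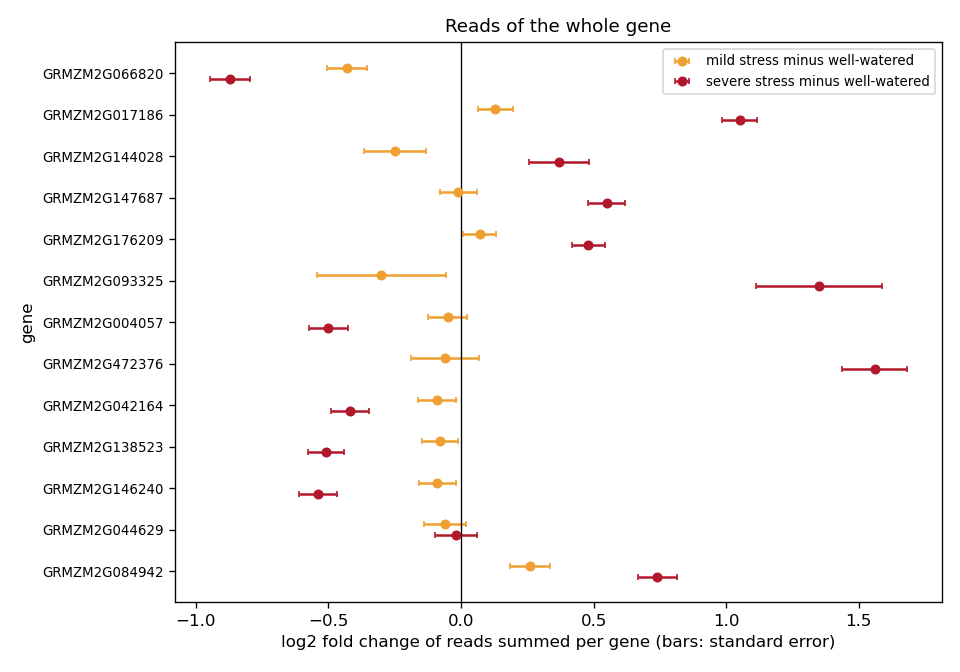
Log2 fold change of the reads summed per gene (x axis, edgeR with TMM, bars are standard errors) for mild (orange) and severe (red) stress against well-watered libraries in the 13 genes (y axis). Under severe stress the points run from -0.87 to 1.56 and under mild stress from -0.43 to 0.26.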

How the data were processed

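RNA-seq of 9 pools of maize primary root tips was analysed from the authors' files. The authors prepared libraries with an NEBNext mRNA kit, sequenced them on an Illumina NextSeq and trimmed the reads with CLC Workbench. Reads were mapped to the gene models of maize RefGen_v3. The authors deposited raw counts for 63074 transcripts, once for all reads and once for reads unique to a transcript. The deposited CPM list 46599 of them and are the total counts scaled by the sum of the listed counts in a library, to within 5e-07 CPM. How the authors gave reads that match several transcripts to 1 of them, and the use of strand, is not given in the sources used here. The authors tested abundance with edgeR and did not test shares of transcripts.

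Shares were computed in Python 3.11.15 (pandas 2.3.3, scipy 1.17.1) from unique counts as deposited. The genes were chosen on these values, and the rule and all lists were chosen with earlier results of these data known. Unique CPM are unique counts scaled by the same sum. Tests of mild against well-watered libraries used R 4.3.3 and edgeR 4.0.16 with TMM factors and treatment as the only term in all 9 libraries, with standard errors derived from the F statistic. The alternatives used limma 3.58.1 and DESeq2 1.42.0. Both tests were run on simulated data first, with fixed fold changes and a fixed spread. That run does not show how well they find differences as small as the mild ones. Named genes are the 12 with the largest difference, those next to the threshold, the 6 with the smallest mild p, the miRNA target and those whose largest transcript in unique reads switched, which together took in all 13. Gene names come from RefSeq (Zm-B73-REFERENCE-NAM-5.0, 12 of 13 matched), used for names only. Keyword lists of gene functions could not be applied, because the table used here has no descriptions. Pools of one treatment are the replicates, and how they were grown or sequenced in batches was not analysed here. Same-numbered libraries of different treatments did not deviate together (5 pairs, correlation of deviations from treatment means over genes -0.00245 to 0.113), so they were not paired.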

Additional observations from a re-analysis of the deposited data

How the results depend on the processing

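The number of genes that met the rule depended on its limits. It was 28 with at least 50 unique reads in every library, 7 with at least 200, 38 with a difference of at least 10 points, 5 with at least 20, and 13 when overlap of the libraries was allowed. In total reads 9277 genes had enough reads and 237 met the rule, 11 of the 13 among them. Without single libraries the number was 12 to 19. Of 91 recomputed differences of the 13 genes, in total reads or without a library, 89 stayed within the replicate SD. With so few libraries per treatment, leaving out a library cannot move a difference beyond that SD. The values without a library therefore do not test how stable the differences are. Only the values in total reads could leave this range, and those of WAK-RLK2 (31.9 points) and GRMZM2G004057 (2.74) did.

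For transcript usage under mild stress, the number of the 13 genes called was 1 with the gene-level F-test, 0 to 1 without single libraries, and 0 with the replicate block and the other alternatives. For gene reads under mild stress it was 2 with DESeq2, 2 with the replicate block, 3 with only well-watered and mild libraries in the fit, and 1 to 2 without single libraries. GRMZM2G066820 was called in all of these except in unique reads, where GRMZM2G084942 was called in its place. The replicate block lowered the number of genes called for gene reads under mild stress from 2309 to 1415. The severe log2 change of gene reads of GRMZM2G044629, -0.02, turned to 0.11 without TMM, 0.37 in unique reads, 0.04 with the replicate block and lay between -0.05 and 0.03 without single libraries. The severe gene totals and the TMM scaling of unique reads were recomputed in ways chosen after the data had been seen. The cause of these differences was not tested.

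Each treatment had 3 pools, and a gaining or losing transcript had as few as 9 unique reads in a library. No detection limit was computed.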
